A study of Mus musculus with 2 samples.

Results

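The genes of GABA transport and metabolism described here are 8 of the 21628 entries in the deposited table: the plasma membrane transporters *Slc6a11*, *Slc6a13* and *Slc6a12*, the vesicular transporter *Slc32a1*, the synthetic enzymes *Gad1* and *Gad2*, and the breakdown enzymes *Abat* and *Aldh5a1*. They were picked by name, with their values known, because 2 of the transporters were much higher in the brighter of the sorted populations, so the differences between populations are given as a description and no test supports them. RNA was sequenced from lingual epithelium of newborn (P0) mice with the genotype *Sox2GFP*, in which a GFP reporter follows SOX2, a transcription factor of taste bud and epithelial progenitors. Tissue from many pups was pooled, dissociated and sorted by GFP brightness, and about 100000 cells each of SOX2-GFP high cells (bright cells below) and SOX2-GFP low cells (dim cells) gave 1 library per population. Both populations therefore share genotype, age, tissue and pool, and differ in the brightness gate, which was cut from a continuum. With 1 library per population, no difference below has a replicate check and no p-value is given.

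GABA is made from glutamate by the glutamate decarboxylases and broken down in mitochondria through succinic semialdehyde to succinate, a route known as the GABA shunt. Cells release GABA from vesicles and clear it, together with beta-alanine and taurine, through sodium- and chloride-coupled transporters of the SLC6 family. In taste buds GABA is known as a transmitter between taste cells, and the decarboxylase encoded by *Gad1* is a marker of type III taste cells.

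Values are FPKM, which count sequenced fragments relative to transcript length and library size, so that levels can be set side by side between genes. A gene was called where the population with more of it had 5 FPKM or more and at least 1.5 times the FPKM of the other. These are the limits in the study's Results, while its Methods ask for 5 FPKM in each sample, under which 0 of the 8 genes are called. By this rule 2 of the 8 genes, *Slc6a11* and *Slc6a13*, were called higher in bright cells, beside 5.9% of the 17283 entries compared. The study itself names both among the genes enriched in its GFP-high cells, although the limit in its Methods would leave them out. None of the 8 was called higher in dim cells, beside 5.54% of entries. Without the FPKM minimum, 4 of the 8 would be called higher in bright cells (18.1% of entries) and 3 higher in dim cells (18.8%). On a scale where each library sums to the same total, the share of all calls that lay in the bright direction was 40.3% instead of 51.6%, while the same number of members was called. The *Sox2* transcript itself stood at 112 FPKM in bright and 59.0 FPKM in dim cells, a fold of 1.90. Depth was estimated from the steps that whole reads leave in low FPKM, at about 27000000 reads in the bright library and 35750000 in the dim library, and read numbers below are approximate for that reason. The estimate depends on the bases taken off each transcript's length: taking off 0 nt gave about 23000000 and 26250000 reads, and 50 nt gave about 24250000 and 28250000. Read numbers of the members would then be 0.761 to 0.964 times those below. Each read number also uses the longest annotated transcript of its gene. That range does not cover the choice of transcript, whose effect was not tested.

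The sequences just upstream of *Slc6a11*, *Slc6a13*, *Slc6a12* and *Gad2* are shown because the transporters had the largest ratios among the 8 genes, *Slc6a13* and *Slc6a12* are neighbors with opposite differences, and *Gad2* is listed at 0 in dim cells alone. They come from the RefSeq promoter windows of GRCm38.p6 (the mm10 build), plus strand. Each ends at the base before the gene start in GENCODE M21. *Slc6a12* also has RefSeq windows that begin further upstream, at 121342324 and 121342653. Part of its stretch may therefore be transcribed from those earlier starts. Capitals mark CG dinucleotides, a marking chosen after a search for 5 motifs had found none in these windows.
Slc6a11, chr6:114130991-114131240: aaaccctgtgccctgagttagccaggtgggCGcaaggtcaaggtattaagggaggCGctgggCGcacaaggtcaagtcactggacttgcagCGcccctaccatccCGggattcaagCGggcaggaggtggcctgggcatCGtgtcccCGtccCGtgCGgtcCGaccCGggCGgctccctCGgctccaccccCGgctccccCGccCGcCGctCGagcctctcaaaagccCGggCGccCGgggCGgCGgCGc
Slc6a13, chr6:121300038-121300226: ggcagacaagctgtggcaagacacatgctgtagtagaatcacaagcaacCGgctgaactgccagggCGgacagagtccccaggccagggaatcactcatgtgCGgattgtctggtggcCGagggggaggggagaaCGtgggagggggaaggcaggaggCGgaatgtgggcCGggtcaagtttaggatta
Slc6a12, chr6:121342826-121343075: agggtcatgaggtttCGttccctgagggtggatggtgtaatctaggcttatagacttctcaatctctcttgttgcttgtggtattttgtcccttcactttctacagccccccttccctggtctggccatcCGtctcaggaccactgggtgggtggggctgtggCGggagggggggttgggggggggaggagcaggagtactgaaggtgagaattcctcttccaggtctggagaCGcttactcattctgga
Gad2, chr2:22622077-22622204: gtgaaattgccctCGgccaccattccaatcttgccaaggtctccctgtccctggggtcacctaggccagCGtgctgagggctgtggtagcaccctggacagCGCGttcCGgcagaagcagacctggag
The *Slc6a11* stretch holds 25 CG dinucleotides in 250 bases, the *Slc6a12* stretch 4 in 250, the *Slc6a13* stretch 7 in 189 and the *Gad2* stretch 5 in 128. Over the whole 300-base window that includes the start of the transcript, GC content was 72.3% for *Slc6a11*, above 93.5% of the 32851 mouse windows, and 59.0% for *Slc6a13*, above 68.1% of them. The upstream sequences of these genes, which differed in the same direction, were therefore of unlike composition. The letters ACAAAG and ACAATG (SOX motifs), GTAAACA (forkhead), GACCACCCA (GLI) and TATAAA, the core promoter motif, were sought on both strands. None was found in the windows of *Slc6a11*, *Slc6a13*, *Slc6a12* or *Gad2*, beside 18.7%, 12.6%, 3.65%, 0.253% and 13.6% of all windows. That says only that these letters are not in these windows. Of the other members with a window, *Gad1* held TATAAA and the first of the SOX motifs, and *Aldh5a1* and *Slc32a1* held none of the 5.

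The plasma membrane transporters take GABA back into cells. *Slc6a11* (ENSMUSG00000030307, chromosome 6, 114131241–114249952, plus strand) stood at 16.8 FPKM in bright cells and 0.62 FPKM in dim cells. Its ratio was 27.1, rank 6 among the 1020 entries called higher in bright cells. These values correspond to about 1785 reads in the bright library and about 87 in the dim library, so the transcript was detected in both. *Slc6a13* (ENSMUSG00000030108, chromosome 6, 121300227–121337733, plus strand) stood at 17.0 FPKM in bright cells and 2.17 FPKM in dim cells. Its ratio was 7.84, rank 31 among the same entries, from about 935 and about 158 reads. Folds as large in the same direction, at any FPKM, were found for 31 entries (0.179%) in the case of *Slc6a11* and 172 entries (0.995%) in that of *Slc6a13*. With 1 added to each FPKM, the ratio of *Slc6a11* was 11.0 and that of *Slc6a13* 5.68.

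The levels of *Slc6a11* and *Slc6a13* lay close together in bright cells and apart in dim cells. *Slc6a11* reached 0.988 of the *Slc6a13* FPKM in bright cells and 0.286 of it in dim cells. Of the summed FPKM of the 3 plasma membrane transporters, *Slc6a11* held 49.6% in bright cells and 19.6% in dim cells. *Slc6a13* held 50.2% and 68.5%. The sum itself was 33.9 FPKM in bright cells and 3.17 FPKM in dim cells. In absolute level neither gene was abundant: in bright cells *Slc6a11* lay above 56.4% of all entries and *Slc6a13* above 56.6%.

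*Slc6a12* (ENSMUSG00000030109, chromosome 6, 121343076–121365775, plus strand), which encodes the betaine and GABA transporter, was the plasma membrane transporter with the opposite difference. It stood at 0.06 FPKM in bright cells and 0.38 FPKM in dim cells, 6.33 times more in the latter. The values rest on about 4 and about 33 reads, and rounding of the deposited FPKM alone allows 5.77 to 7.0 times. *Slc6a12* held 0.177% of the summed FPKM of the 3 transporters in bright cells and 12.0% in dim cells. Both levels were far under 5 FPKM, so the gene was not called. *Slc6a12* and *Slc6a13* share 0.13% and 0.14% of their 50-nt transcript windows with another gene, and *Slc6a11* shares none, so reads of this length can be told apart between these paralogs.

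**Figure D1:**
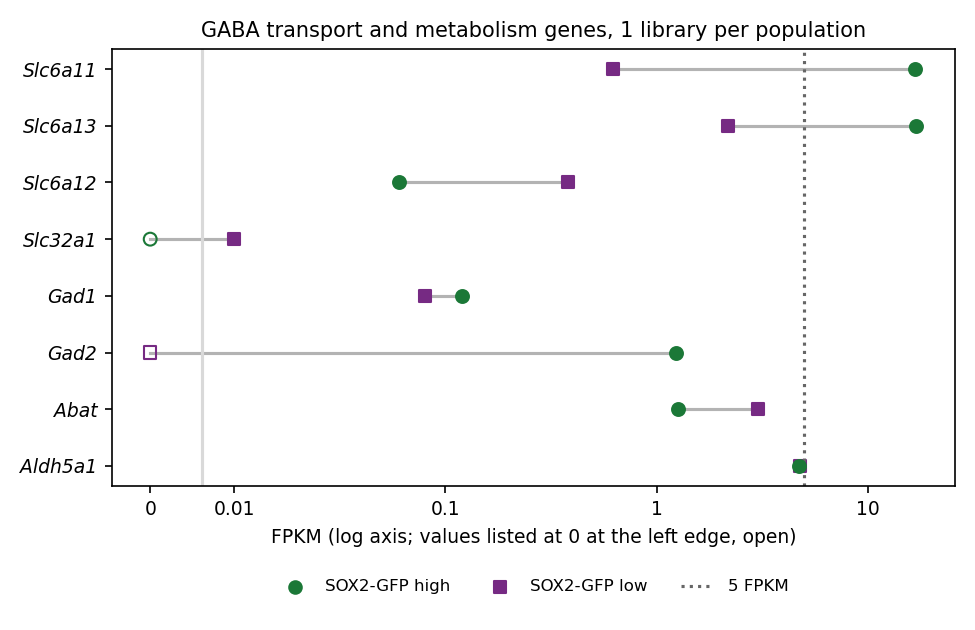
FPKM of the 8 genes on a log axis in the SOX2-GFP high library (green circles) and the SOX2-GFP low library (purple squares), 1 library each, with open symbols for values listed at 0 and a dotted line at 5 FPKM. *Slc6a11* and *Slc6a13* cross the line to nearly the same level in bright cells, *Slc6a12* and *Abat* lie the other way, and the symbols of *Aldh5a1* coincide.

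Vesicular release needs the transporter encoded by *Slc32a1* (ENSMUSG00000037771, chromosome 2, 158610767–158615748, plus strand). It is listed at 0 in bright cells and stood at 0.01 FPKM in dim cells, about 1 read. Annotated antisense exons cover 24.9% of its exon bases. The transcript was thus not detectable at this depth in either population beyond the level of single reads.

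The decarboxylases make GABA from glutamate. *Gad2* (ENSMUSG00000026787, chromosome 2, 22622205–22693874, plus strand) stood at 1.23 FPKM in bright cells and is listed at 0 in dim cells. The bright value corresponds to about 184 reads. Entries with at least 1 FPKM in bright cells and a listed 0 in dim cells numbered 17, or 0.0984% of those compared, and *Gad2* was at rank 14 among them by FPKM. No ratio is given against a listed 0, and at under 5 FPKM the gene was not called. *Gad1* (ENSMUSG00000070880, chromosome 2, 70553072–70602014, plus strand) stood at 0.12 FPKM in bright and 0.08 FPKM in dim cells, about 11 and about 10 reads. Its ratio of 1.5 lies between 1.35 and 1.67 within the rounding of the deposited values, and 14.7% of all entries had a ratio as large in that direction. Of the decarboxylases, *Gad2* was therefore the one with more than about 11 reads in a library.

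Of 7 markers of type III taste cells, none was called higher in bright cells and 1, *Ncam1* (7.64 and 11.8 FPKM), was called higher in dim cells. Over all entries the shares called were 5.9% and 5.54%. The other 6 type III markers had more FPKM in bright cells, each at 0.87 FPKM or less, beside 45.6% of all entries with more in bright cells. The summed level of the 7 was 10.2 FPKM in bright and 12.0 FPKM in dim cells, most of it in both from *Ncam1*, which lay opposite to the other 6. *Car4* (0.87 FPKM) and *Ddc* (0.38 FPKM) were detected in bright cells and are listed at 0 in dim cells, as is *Gad2*. The rest of the 7 were above 0 in dim cells. A listed 0 in dim cells was not particular to this type: the type II taste cell marker *Gnat3* stood at 0.92 FPKM in bright cells and 0 in dim cells. Of 6 neuron markers, 5 had more FPKM in bright cells and 1, *Stmn2*, was called, with none at 0, and they summed to 15.7 FPKM in bright and 3.57 FPKM in dim cells. *Stmn2* held the largest share, at 10.4 and 2.22 FPKM. The part of these cells in the values of *Gad2* was not tested, and in bulk libraries fewer cells of a type cannot be told apart from less RNA per cell.

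The breakdown enzymes were detected in both populations. *Abat* (ENSMUSG00000057880, chromosome 16, 8513429–8621568, plus strand) encodes the transaminase that turns GABA into succinic semialdehyde and also degrades beta-alanine. It stood at 1.26 FPKM in bright cells and 3.03 FPKM in dim cells, 2.40 times more in the latter, from about 151 and about 481 reads. Ratios as large in that direction were found for 6.76% of entries, and the gene was under 5 FPKM in both libraries and not called. *Aldh5a1* (ENSMUSG00000035936, chromosome 13, 24907579–24937661, minus strand), whose enzyme oxidizes succinic semialdehyde to succinate, stood at 4.71 FPKM in bright and 4.78 FPKM in dim cells. These lie just under the limit of 5 FPKM and 1.01-fold apart, and once dim values were multiplied by the median ratio of the libraries the order turned, to 1.01 in favor of bright cells. An antisense gene covers 14.1% of the exon bases of *Aldh5a1* and another 3.6%, and whether the counting used the strand is not given in the sources used here. The ratio of *Aldh5a1* to *Abat* was 3.74 in bright cells and 1.58 in dim cells.

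The members did not share a direction. *Slc6a11* and *Slc6a13* were called higher in bright cells, where *Gad2* and *Gad1* also had more FPKM without being called, and *Slc6a12* and *Abat*, also not called, had more in dim cells. In all, 4 of the 8 genes had more FPKM in bright cells and 4 in dim cells. The median difference was 0.02 on the log2(FPKM + 1) scale, beside -0.02 over all entries, and rests on the low genes: it was 0.13 with a pseudocount of 0.1 and 1.24 over those members whose 2 values averaged 1 FPKM or more. The summed FPKM of the 8 genes was 41.2 in bright cells and 11.1 in dim cells, and *Slc6a11* and *Slc6a13* held 40.8% and 41.3% of the former. Of the 8, 5 reached 1 FPKM in bright cells and 3 did in dim cells.

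**Figure D2:**
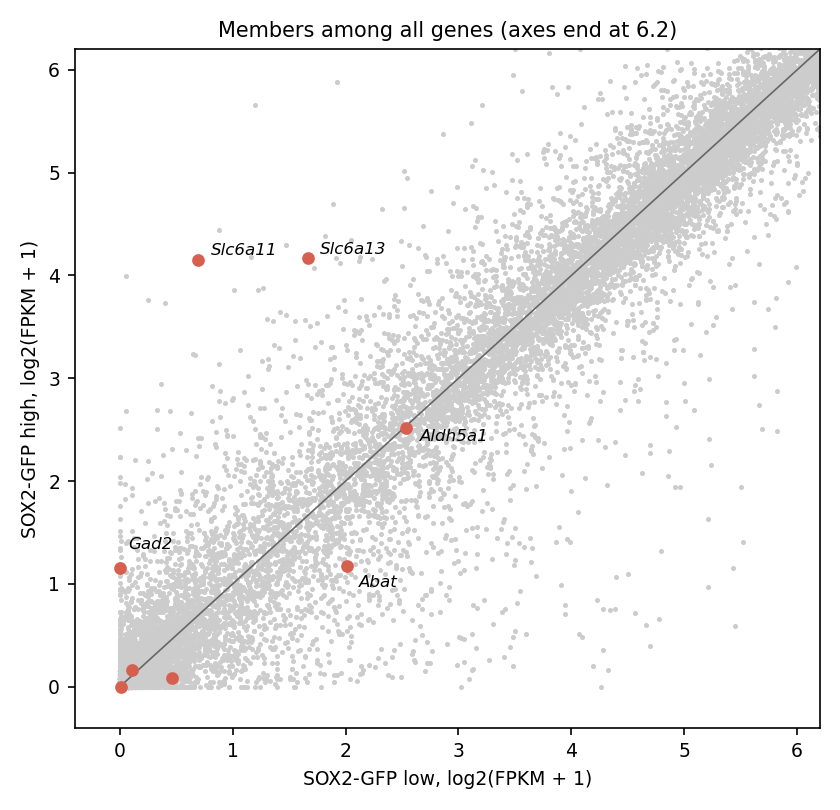
Each grey point is 1 entry of the table, with log2(FPKM + 1) in SOX2-GFP low cells on the x axis and in SOX2-GFP high cells on the y axis, the line marks equal values, and the 8 genes are in red, the 3 near the origin unlabelled. *Slc6a11* and *Slc6a13* lie above the line and at nearly the same y value, 16.8 and 17.0 FPKM in bright cells, *Aldh5a1* lies on it and *Abat* below it.

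The 3 plasma membrane transporter genes lie on chromosome 6. *Slc6a13* ends 5.34 kb before *Slc6a12* starts, on the same strand, and these neighbors differed in opposite directions. The starts of *Slc6a11* and *Slc6a13* are 7169 kb apart. Among 10 protein-coding neighbors of *Slc6a11*, the nearest 5 on each side of those reported here, 1 was called higher in bright cells (*Irak2*, a kinase of interleukin signaling, 18.8 and 8.22 FPKM) and none higher in dim cells. Over all entries the shares called were 5.9% and 5.54%. The median difference of the 10 neighbors was -0.02 on the log2(FPKM + 1) scale, against 3.46 for *Slc6a11*.

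Next to *Slc6a13*, 2 of 10 neighbors were called higher in bright cells, beside 5.9% of all entries. Both called neighbors lay on the side away from *Slc6a12*. *Usp18*, an interferon-induced protease and the nearest gene upstream, stood at 6.57 FPKM in bright cells and 0.76 FPKM in dim cells, a ratio of 8.64 beside the 7.84 of *Slc6a13*. *Tuba8*, a tubulin gene beyond it, stood at 21.1 and 7.84 FPKM, a ratio of 2.70. *Pex26*, a peroxisome gene further out, stood at 32.6 and 21.8 FPKM, just under the 1.5-fold limit. On the other side, *Slc6a12*, *Iqsec3*, *A2m*, *Mug1* and *Mug2* were all at 0.38 FPKM or less in both libraries. Of the 10 neighbors of *Gad2*, none was called in either direction, and the same held for the 10 neighbors each of *Abat*, *Aldh5a1* and *Gad1*.

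**Figure D3:**
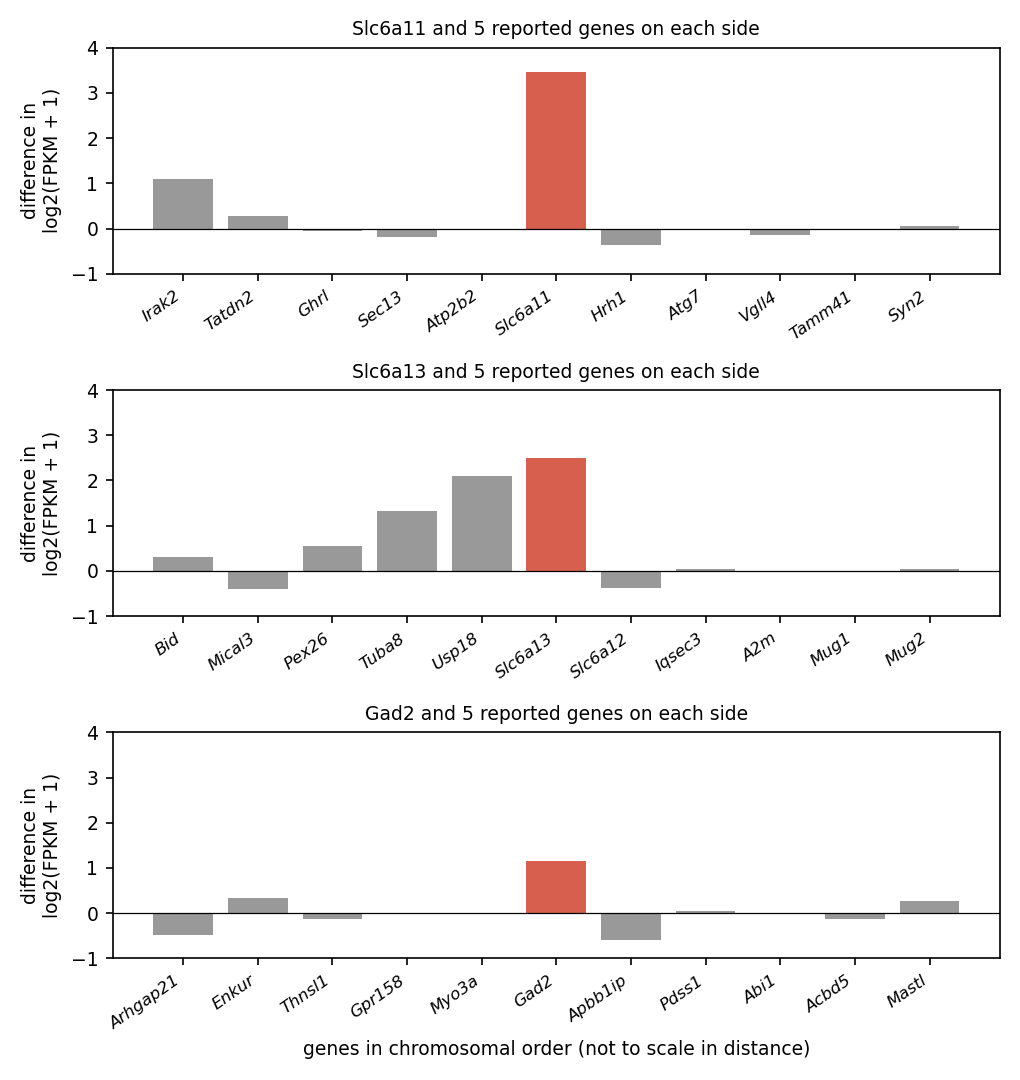
Difference in log2(FPKM + 1), SOX2-GFP high minus SOX2-GFP low, for *Slc6a11*, *Slc6a13* and *Gad2* (red) and the nearest 5 protein-coding genes reported on each side (grey), in chromosomal order. *Slc6a11* (3.46) and *Gad2* (1.16) exceed each of their 10 neighbors, while *Usp18* and *Tuba8* beside *Slc6a13* differ in the same direction.

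The entries nearest to each transporter were sought by Euclidean distance in the plane of log2(FPKM + 1) in the 2 libraries. With 2 libraries, likeness means a similar level in both and nothing more. Nearest to *Slc6a11* was *Shh*, the ligand of the hedgehog pathway, at 20.7 and 0.84 FPKM and a distance of 0.34. The next were *Pex5l* (13.5 and 1.01 FPKM), *Mitf* (17.2 and 1.24), *Gpa33* (12.3 and 0.32) and *Khdrbs2* (12.5 and 0.19). Nearest to *Slc6a13* was *Wnt16*, a Wnt ligand, at 15.9 and 2.29 FPKM and a distance of 0.11. Others close to it were *Cyp27a1* (18.6 and 1.77 FPKM), the retinoic acid receptor gene *Rarb* (17.0 and 2.76) and *Atp13a4* (16.4 and 2.86).

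The other genes of the pathway were grouped in 10 lists with 111 different genes in the table. Of these, 7 (6.31%) were called higher in bright cells and 9 (8.11%) higher in dim cells, near the shares among all entries. Among 16 other SLC6 transporters, 2 were called, both higher in bright cells, beside 5.9% of all entries. The neutral amino acid transporter *Slc6a19* stood at 8.68 and 3.04 FPKM and the serotonin transporter *Slc6a4* at 16.3 and 9.50 FPKM, with ratios of 2.86 and 1.72. The most abundant were the creatine transporter *Slc6a8* (283 FPKM in bright and 233 in dim cells) and the taurine transporter *Slc6a6* (102 and 134 FPKM), neither of them called. Among the SLC6 genes at 5 FPKM or more, *Slc6a11* and *Slc6a13* had the largest ratios, but they were picked for that difference. They also reach 5 FPKM in bright cells only. *Slc6a20a*, under that limit at 1.36 and 0.12 FPKM, had a ratio of 11.3, above that of *Slc6a13*. In bright cells the levels of *Slc6a11* and *Slc6a13* were about that of *Slc6a4*, and in dim cells they were below it.

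GABA-A receptors are pentameric chloride channels, and GABA-B receptors are pairs of the *Gabbr1* and *Gabbr2* products. Of 17 GABA-A subunit genes, none reached 5 FPKM in either library, 4 are listed at 0 in both, and 15 were under 1 FPKM in both. Those above it were *Gabre* (1.24 and 1.18 FPKM) and *Gabrp* (1.06 and 0.44 FPKM). *Gabrg1* is listed at 0 in both, and *Gabrg3* stood at 0.18 and 0.06 FPKM. Summed over the 17 genes, the level was 3.79 FPKM in bright and 3.80 FPKM in dim cells. *Gabbr1* was the abundant receptor gene, at 36.0 FPKM in bright and 57.5 FPKM in dim cells, and was called higher in dim cells by a ratio of 1.60. Its partner *Gabbr2* stood at 0.01 and 0.25 FPKM. Of the KCTD genes, whose proteins attach to GABA-B receptors, *Kctd12* stood at 5.30 and 4.33 FPKM, and 62.0% of its 50-nt windows occur in another annotated gene, so its level is uncertain.

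**Figure D4:**
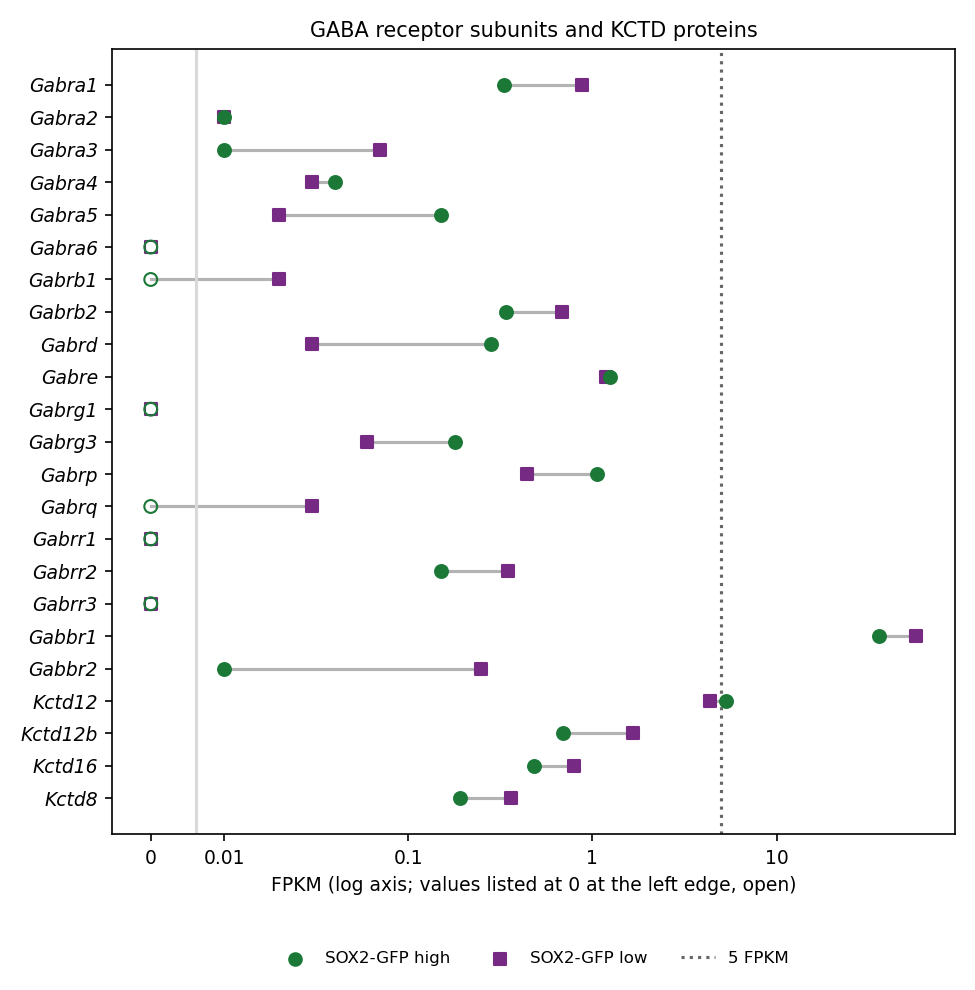
FPKM of 17 GABA-A receptor subunit genes, the GABA-B receptor genes and 4 KCTD genes on a log axis, in the SOX2-GFP high library (green circles) and the SOX2-GFP low library (purple squares), with open symbols for values listed at 0 and a dotted line at 5 FPKM. *Gabbr1* is the gene clearly right of the line in both libraries, and no GABA-A subunit reaches it.

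Glutamate is the substrate of the decarboxylases. Of 19 genes of glutamate and glutamine supply, 1 was called higher in bright cells and 5 higher in dim cells, beside 5.9% and 5.54% of all entries. *Glul*, the glutamine synthetase gene, stood at 608 FPKM in bright and 286 FPKM in dim cells, a ratio of 2.13 and the highest level in the list. *Slc1a3*, a glutamate transporter and type I taste cell marker, lay the other way at 8.38 and 34.2 FPKM. The glutamine transporters *Slc38a1* (1.47 and 6.07 FPKM) and *Slc38a3* (12.6 and 24.2 FPKM), the glutaminase gene *Gls2* (3.52 and 8.62 FPKM) and *Slc1a5* (26.2 and 39.4 FPKM) were also called higher in dim cells. The ratio of *Slc1a5* was close to the limit and fell to 1.46 on the median ratio scale, where the call was lost.

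GABA can also be made from putrescine through amine oxidases and aldehyde dehydrogenases. Of 7 genes of this route, 2 were called, both higher in bright cells, beside 5.9% of all entries. *Aldh1a1*, an aldehyde dehydrogenase that also makes retinoic acid, stood at 10.8 and 2.11 FPKM, a ratio of 5.14. The monoamine oxidase gene *Maoa* stood at 23.4 and 15.5 FPKM, a ratio of 1.51, close to the limit, and 1.41 on the scale of equal library totals, where the call was lost. *Maob* stood at 0.43 and 0.35 FPKM, and the amine oxidase gene *Aoc1* at 0.2 and 0.01 FPKM, about 14 and about 1 reads. The highest level was that of *Sat1* (298 and 334 FPKM), which was not called. The median difference of the list was 0.45 on the log2(FPKM + 1) scale, the highest of the 10 lists, beside -0.02 over all entries.

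Beta-alanine is a substrate of the transporters encoded by *Slc6a11* and *Slc6a13* and of the *Abat* transaminase. *Upb1*, whose enzyme makes beta-alanine in the last step of pyrimidine breakdown, stood at 49.4 FPKM in bright cells and 1.29 FPKM in dim cells, a ratio of 38.3. *Dpyd*, the enzyme of the first step, stood at 14.4 and 4.05 FPKM, a ratio of 3.55. *Dpys*, the step between them, is listed at 0 in bright cells and stood at 0.17 FPKM in dim cells. *Cdo1*, which starts taurine synthesis from cysteine, was the highest of the 14 genes of this list in dim cells and was called higher there, at 81.8 and 195 FPKM. *Upb1* had been seen among the largest ratios of the table before the list was written, so its place in the list is no independent result.

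In the 4 other lists 2 genes were called, both cation-chloride cotransporters higher in dim cells, beside 5.54% of all entries. *Slc12a2*, which loads cells with the chloride that GABA-A channels pass, stood at 36.4 and 55.1 FPKM, a ratio of 1.51 that fell to 1.47 and lost its call on the median ratio scale, and *Slc12a4* at 89.5 and 147 FPKM. *Slc12a5*, the neuronal chloride exporter gene, stood at 1.73 and 1.38 FPKM. None of the 10 genes at the exit of the shunt to the TCA cycle was called, with *Sdha* the highest at 281 and 286 FPKM. None of the 9 receptor scaffold and trafficking genes was called (highest *Gabarap*, 504 and 427 FPKM), nor any of 8 betaine and osmolyte genes (highest *Nfat5*, 52.2 and 66.7 FPKM).

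**Figure D5:**
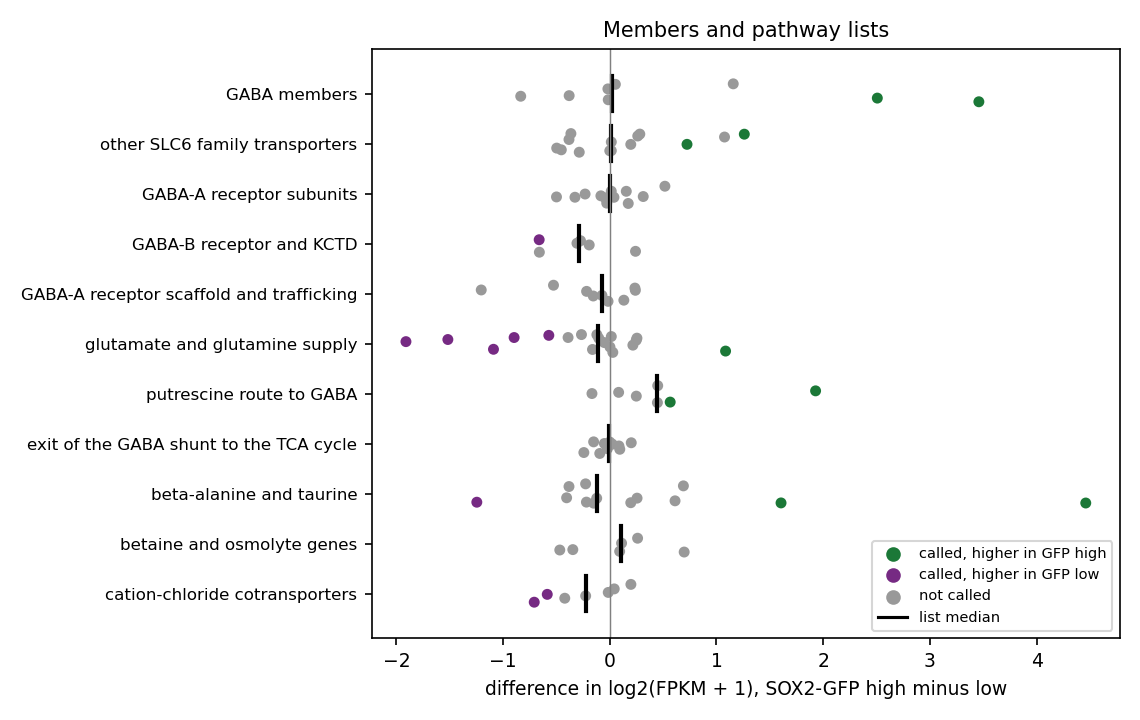
Difference in log2(FPKM + 1), SOX2-GFP high minus SOX2-GFP low, for each gene above 0 in at least 1 library, by list, with called genes in color and the list median as a black bar. *Upb1*, *Slc6a11* and *Slc6a13* are the 3 points furthest right, at 4.46, 3.46 and 2.51.

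Genes of other cell types differed between the libraries as well. All 11 fibroblast markers had more FPKM in dim cells and 8 were called, beside 53.5% of all entries with more in dim cells, with summed levels of 579 FPKM in bright and 2948 FPKM in dim cells, and so had all 7 Schwann lineage markers, 5 of them called (89.7 and 311 FPKM), with none of either list at 0. Over all entries, 5.9% were called higher in bright and 5.54% higher in dim cells. The fibroblast and Schwann lineage markers lie in the direction of *Slc6a12* and *Abat*, and their part in those values was not tested. *Slc6a11* and *Slc6a13* lie in the opposite direction. Epithelial markers were abundant in both populations, from 27.9 to 9667 FPKM in bright and from 12.2 to 10422 FPKM in dim cells. Of the 6, 3 had more FPKM in bright cells and 3 in dim cells. *Krt8* (27.9 and 12.2 FPKM), a keratin of taste buds, and *Epcam* (166 and 86.8 FPKM) were called higher in bright cells, in the direction of *Slc6a11* and *Slc6a13*. *Krt14* (6672 and 9635 FPKM), *Krt5* (9667 and 10422 FPKM) and *Trp63* (278 and 359 FPKM) had more in dim cells without being called. On the scale of equal library totals *Krt14* was called higher in dim cells (ratio 1.54). The part of epithelial markers in the values of *Slc6a11* and *Slc6a13* was not tested. Of 9 endothelial markers, 8 had more FPKM in bright cells, beside 45.6% of all entries, with sums of 40.2 and 29.2 FPKM and none at 0. Of them 1, *Pecam1* (5.31 and 2.38 FPKM), was called, and its call was lost on the scale of equal library totals (ratio 2.09). The other 8 endothelial markers were not called. Those with more in bright cells lie in the direction of *Slc6a11* and *Slc6a13*, and the part of endothelial markers in the values of these transporters was not tested. Leukocyte markers summed to 17.6 and 19.9 FPKM. Type II taste cell markers summed to 103 and 144 FPKM, most of it from *Itpr3* (97.4 and 140 FPKM). Of the 8 type II markers, 6 had more FPKM in bright cells and 2, *Itpr3* among them, in dim cells, and none was called. *Itpr3* was called higher in dim cells on the scale of equal library totals (ratio 1.54). The 3 type I taste cell markers summed to 32.1 FPKM in bright and 76.5 FPKM in dim cells. That sum is *Entpd2* (23.7 and 42.2 FPKM) and *Slc1a3* alone, since *Kcnj1* is listed at 0 in both. Of the 50-nt windows of *Entpd2* 25.9%, and of those of *Krt8* 29.7%, occur in another annotated gene, so both levels are uncertain. Which cells gave these values was not tested.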

How the data were processed

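Per the labels and the study's methods, the authors pooled pups, sorted about 100000 cells per population and sequenced stranded mRNA libraries as single reads of 50 nt, aiming at about 75000000 reads per sample. The authors trimmed reads with Trimmomatic 0.36, mapped them to mm10 with GSNAP, and deposited FPKM from Cufflinks 2.2.1 rounded to 2 decimals. The column headers call the FPKM means, while the labels give 1 library per population. A deposited score with a sign, the authors' own comparison, was not used.

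Of 21628 entries, 21 not protein-coding in GENCODE M21, 17 without a number in at least 1 library and 4307 at 0 in both were left out, leaving 17283. Ratios are bright (SOX2-GFP high) over dim (SOX2-GFP low); list medians use log2(FPKM + 1), which understates differences of low genes. Depth was the read number at which most FPKM of 0.05 to 0.3, times exon length less 200 nt, fell within 0.15 of whole reads (genes with 1 transcript, 400 to 2500 nt). It brought 51.5% of 344 bright and 47.5% of 326 dim values near whole reads. Even spread gives 30% at a depth fixed beforehand. Here the depth was picked from many for the largest share, so a share above 30% does not check it. Corrections of 0, 50 and 200 nt were tried and 200 nt was kept because it gave the largest shares. Too few values were whole for a count test. The members and lists were chosen with earlier results of these data known. Named were the members, list genes called or highest in their list, receptor subunits, and entries near *Slc6a11* and *Slc6a13*. Chromosomal neighbors and a few list genes not called were named after their values were seen. Some genes are not reported here and were left out of lists and neighbors. Calls were tested on simulated data. Python 3.11.15 and pandas 2.3.3 were used.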

Additional observations from a re-analysis of the deposited data

How the results depend on the processing

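With 1 library per population, the values cannot be set against a spread between replicates, and the depths are estimates. No paired analysis was possible because each population has 1 library and no result comes from a test. *Slc6a11* and *Slc6a13* were called under every alternative but a minimum of 5 FPKM in both populations, where their ratios of 27.1 and 7.84 stay and 0 members are called, because dim cells are under the minimum. Across the other alternatives their ratios ran from 11.0 to 27.9 and from 5.68 to 8.06. With a minimum of 1 FPKM, 3 members were called higher in bright cells, *Gad2* being added, and 1 (*Abat*) higher in dim cells, and all entries gave 1540 and 1563 calls in the bright and dim directions. With no minimum, 4 members were called higher in bright and 3 higher in dim cells, beside 3131 and 3248 entries. With 5 FPKM in both, 633 entries were called higher in dim cells, and with a 2-fold limit 448 and 467. *Aldh5a1* turned to 1.01 in favor of bright cells under the median ratio scale. The median difference over the 8 members was 0.13 with a pseudocount of 0.1 and 1.24 over those with a mean of at least 1 FPKM, which leaves out the low genes. On the scale of equal library totals *Nlgn2*, a scaffold gene, was called higher in dim cells (ratio 1.56). Length corrections of 0 and 50 nt for the depth were added after the data were seen and lowered the estimated reads in both libraries. Of 44 values of list medians under alternatives, 36 lay within 0.1 of those given.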
